A study of Homo sapiens with 16 samples.

Results

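The genes described here encode the chaperones of the cytosol and mitochondria and their partners, in LN229, an established human glioblastoma (GBM) line. They are 41 genes chosen by name, out of 14108 genes listed for the series in either of 2 tables, and all 41 are listed in both tables. They comprise 2 heat shock transcription factors, 7 members of the HSP70 and HSP110 families, 3 of the HSP90 family, the 2 subunits of the mitochondrial chaperonin, 1 small heat shock protein, 6 J-domain proteins, 2 BAG proteins, 6 partners of HSP90, the 8 subunits of the cytosolic chaperonin TRiC and 4 subunits of prefoldin.

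In the first experiment, untreated LN229 cells were kept in regular culture or in an ischemic culture that combines low nutrients with hypoxia. In the second, each culture received the vehicle DMSO, VX745 (an inhibitor of p38) or MK25 (an inhibitor of MK2, a kinase that p38 activates). Each of the 8 groups holds 2 libraries, 16 in all, and every group is the same line. The labels do not say whether the libraries of a group came from separate cultures, so the p-values measure only the spread between libraries, which may be technical.

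HSP70 proteins bind exposed hydrophobic stretches of newly made or unfolded proteins in a cycle driven by ATP, which J-domain proteins start and which nucleotide exchange factors such as HSP110 and BAG proteins end. HSP90 takes over partly folded clients, among them many kinases, with the help of co-chaperones. Prefoldin hands actin and tubulin to the ring-shaped TRiC, which folds them, and HSP60 with its lid HSP10 folds proteins inside mitochondria. When unfolded proteins build up, the transcription factor HSF1 is released from the chaperones that hold it and binds heat shock elements, inverted repeats of a short unit, in the promoters of many of these genes.

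Sequences are shown for 4 promoters that carry such an element although their genes differed in direction or size between ischemic and regular culture. The element searched was 3 contiguous 5-base units NGAAN, each inverted relative to the one before, on both strands. The 250 bases before a RefSeq start are printed 5′ to 3′ on the strand of the gene, in GRCh38.p14, with the elements in capitals. A gene can have several starts, and only those with an element in these bases were printed. The *HSPA8* and *HSP90AA1* stretches lie inside the gene spans, which run to 123062462 and 102139749. *HSPA6* is at chr1:161524290-161524539 on the plus strand, *HSPA8* at chr11:123062137-123062386 on the minus strand, *HSP90AA1* at chr14:102087045-102087294 on the minus strand and *CHORDC1* at chr11:90223050-90223299 on the minus strand.
HSPA6: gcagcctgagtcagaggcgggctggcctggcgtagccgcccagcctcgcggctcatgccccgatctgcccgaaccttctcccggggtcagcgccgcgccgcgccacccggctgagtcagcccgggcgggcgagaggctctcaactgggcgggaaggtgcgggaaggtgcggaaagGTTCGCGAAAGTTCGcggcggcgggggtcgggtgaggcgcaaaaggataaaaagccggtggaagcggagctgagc
HSPA8: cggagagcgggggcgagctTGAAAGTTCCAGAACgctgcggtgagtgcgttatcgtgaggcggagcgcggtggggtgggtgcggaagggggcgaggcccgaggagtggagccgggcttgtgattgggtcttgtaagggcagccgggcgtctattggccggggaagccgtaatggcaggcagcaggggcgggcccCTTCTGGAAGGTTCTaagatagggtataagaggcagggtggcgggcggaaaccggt
HSP90AA1: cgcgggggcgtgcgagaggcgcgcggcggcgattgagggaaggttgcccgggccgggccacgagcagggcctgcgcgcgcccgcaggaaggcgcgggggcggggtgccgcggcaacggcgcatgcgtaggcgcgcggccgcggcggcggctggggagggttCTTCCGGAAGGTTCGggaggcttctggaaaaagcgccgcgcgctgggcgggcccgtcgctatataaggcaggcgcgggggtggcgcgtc
CHORDC1: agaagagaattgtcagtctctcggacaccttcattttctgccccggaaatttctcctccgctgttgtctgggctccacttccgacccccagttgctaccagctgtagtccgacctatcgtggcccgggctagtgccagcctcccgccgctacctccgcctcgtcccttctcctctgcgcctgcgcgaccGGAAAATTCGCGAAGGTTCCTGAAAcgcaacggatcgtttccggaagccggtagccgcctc

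The *HSPA6* promoter holds 1 such element, *HSPA8* holds 2 that lie apart, *HSP90AA1* holds 1, and *CHORDC1* holds 3 that overlap into 1 run. Windows of 250 bases before to 50 after the start were available for 36 of the 41 genes, with 51 starts among them. An element of 3 units lay in 8 of these 51 windows (15.7%), each of a different gene, against 0.478% of the 35116 promoters in the table. The other 4 genes with one were *HSP90AB1*, *HSPD1*, *DNAJA1* and *DNAJB6*. With 2 contiguous units, which every element of 3 units also contains, the shares were 37.3% and 13.4%, and *DNAJB1*, *HSPB1* and *HSPA9* were among those with the shorter match only. ACGTG, the core of the hypoxia response element, lay in 25.5% of the members' windows and 21.4% of all. These matches describe letters and not bound sites.

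Between 20122017 and 37562668 reads per library lay on the listed genes, and the fewest reads of any member in a library were 60, for *HSPA6*, above the floor of 3 reads. The deposited values are log2 CPM, a read count scaled to library size, normalized by the authors, so a difference of 1 is 2-fold. *NES*, *VIM* and *CD44*, expressed in glioblastoma lines, lay at 8.40 or above in every library, while the glial genes *GFAP* and *SOX9* lay at 2.15 or below. The other markers of the line that were checked lay between or near these. They were *S100B* at 4.54 to 5.47, *FABP7* at 4.02 to 5.21, *SOX2* at 3.13 to 6.48, *OLIG2* at 0.944 to 3.09 and *EGFR* at 5.81 to 7.11. Of 8 markers of immune, endothelial, neuronal and epithelial cells, 6 were not listed. The other two were *CD68*, a lysosomal protein abundant in macrophages, at 4.47 to 6.01 log2 CPM over all libraries, and the neuronal *SNAP25* at 1.47 to 2.51, while the general immune marker *PTPRC* was among those not listed. All 10 hypoxia genes checked rose in ischemic culture in both experiments. Pseudogenes named after 21 of the 41 genes number 123 in RefSeq, with 20 for *HSPA8*, 22 for *HSPD1* and 28 for *HSPE1*, and *HSPE1* overlaps the readthrough gene *HSPE1-MOB4*. Reads that match such copies could be counted differently, and the counter is not given in the sources used here. The ratio of a library's total reads to the library size implied by the deposited scaling was 1.11 and 1.12 in the ischemic DMSO libraries. It was at most 1.03 in the ischemic libraries with an inhibitor, ran from 1.03 to 1.06 in ischemic untreated libraries and from 0.925 to 0.961 in regular libraries, so the ischemic DMSO group stood apart on this measure. Every comparison with ischemic DMSO rests on these 2 libraries, and counts with libraries scaled to their total reads are given after those comparisons. The values are relative to a library's reads, so they do not show changes in the number of cells or in total RNA per cell.

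Levels of different genes were compared as CPM per kilobase of the canonical transcript. In regular, untreated culture *HSPA8*, the constitutive cytosolic HSP70, was the highest of the 41 at 1146 ± 62.3 (SD, n = 2), followed by *HSP90AB1* at 886 ± 10.3 and *HSP90AA1* at 795 ± 58.0, which encode the constitutive and the inducible cytosolic HSP90. The libraries of these 3 genes did not overlap in that culture. In ischemic, untreated culture *HSP90AB1* led with 478 ± 37.4, followed by *CCT6A* at 295 ± 8.71 and *HSP90AA1* at 247 ± 6.21, and *HSPA8* stood at 182 ± 10.0, within the spread of *CCT7* and *PFDN5*. The lowest of the 41 in both untreated cultures was *HSPA6*, a strictly stress-inducible HSP70, at 1.72 ± 0.119 in regular and 1.22 ± 0.425 in ischemic culture. With DMSO in ischemic culture it stood at 15.9 ± 0.273, above 5 other members. The TRiC subunits, which enter the ring in equal numbers, ran from 95.05 ± 5.61 for *TCP1* to 311 ± 20.5 for *CCT3* in regular, untreated culture.

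**Figure D1:**
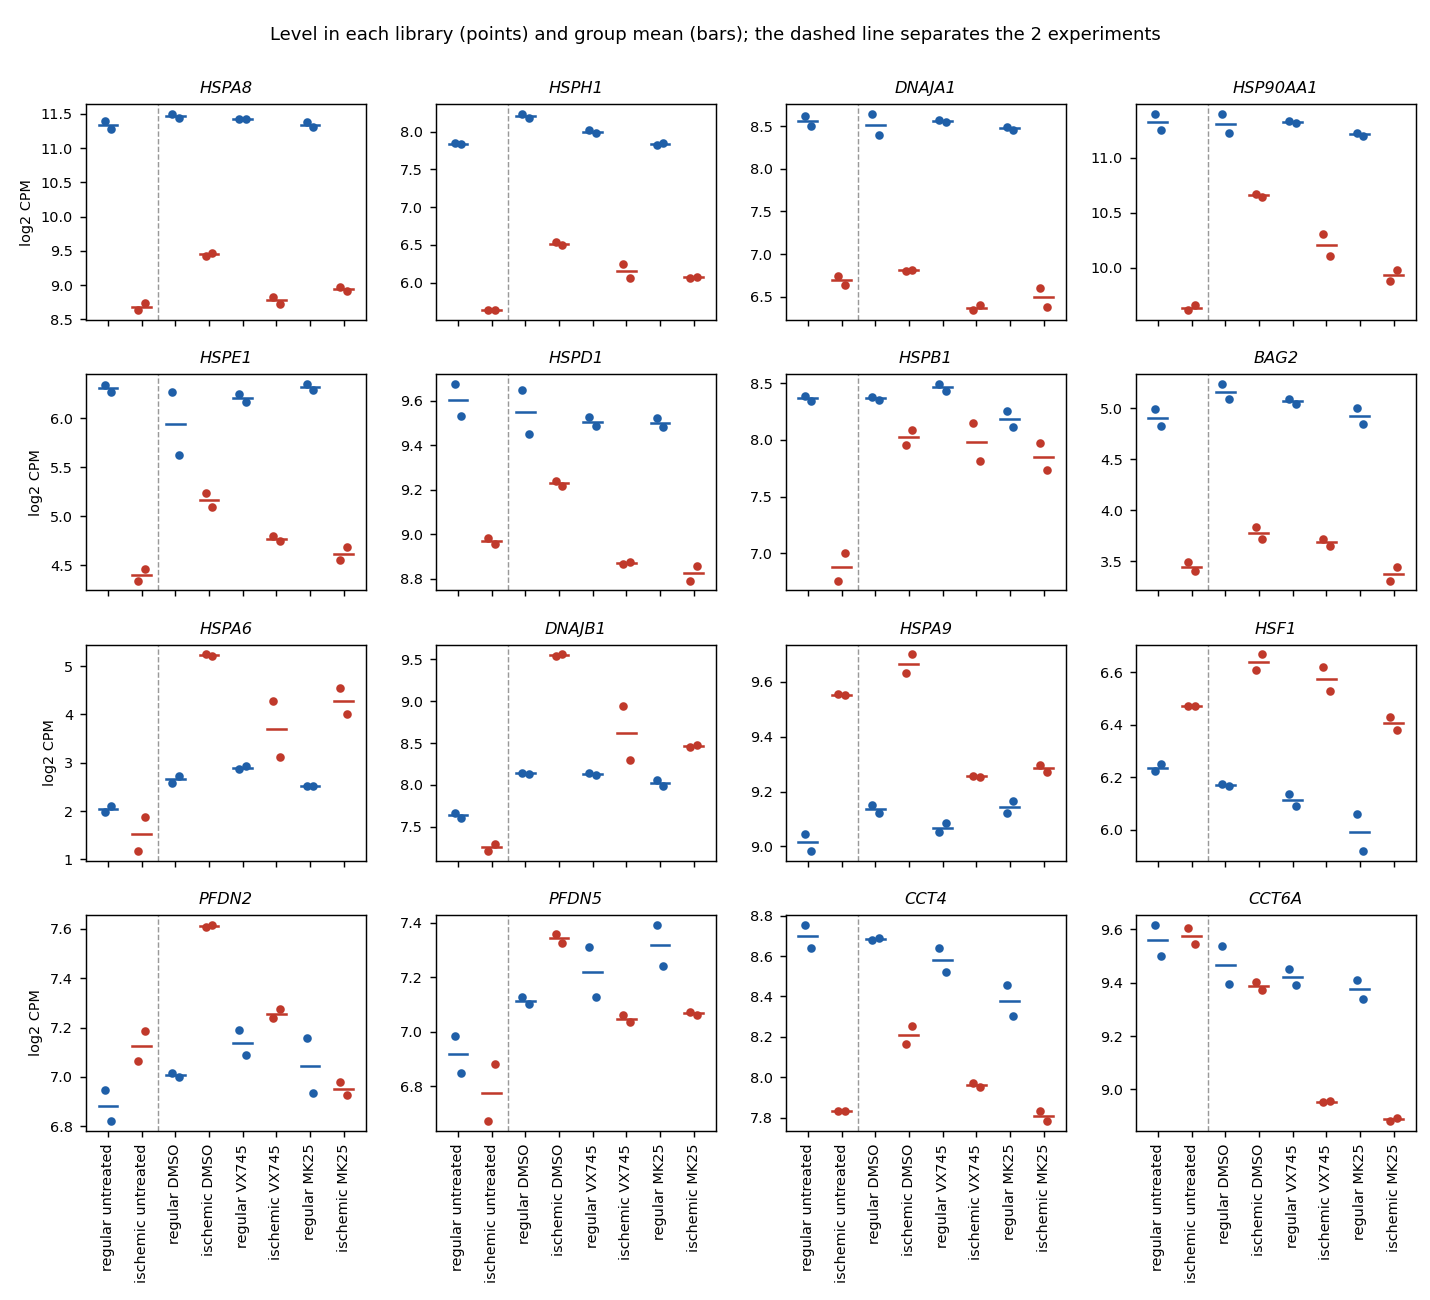
Level of 16 genes in log2 CPM in each library, with regular culture in blue, ischemic culture in red, and bars for group means; the dashed line parts the experiments, which were normalized separately. HSPA8, HSPH1 and DNAJA1 lie lower in every ischemic library than in every regular one, while HSPA6 and DNAJB1 are highest in the 2 ischemic DMSO libraries.

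The first question was which chaperone genes differ between ischemic and regular culture. Genes were called at an adjusted p under 0.05 in limma's moderated test. In untreated cells 29 of the 41 genes fell and 3 rose, where 35.2% of all 13559 genes fell and 35.2% rose. Falls of at least 2-fold were seen for 9 members and rises of that size for 0, against 9.1% of all genes that fell and 11.3% that rose by as much. The median difference was -0.44 over the members and -0.01 over all genes on the log2 scale. With DMSO in both cultures 28 members fell and 7 rose, against 35.2% and 34.4% of 14024 genes, with a median of -0.32 over the members. At least 2-fold, 4 fell and 2 rose, against 8.11% and 9.03% of all genes. Across the experiments 25 genes fell in both, 3 rose in both, and 1, *DNAJB1*, fell in untreated cells and rose with DMSO. The share of all genes with such calls in both experiments was not counted, so these counts have no background to be set against.

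**Figure D2:**
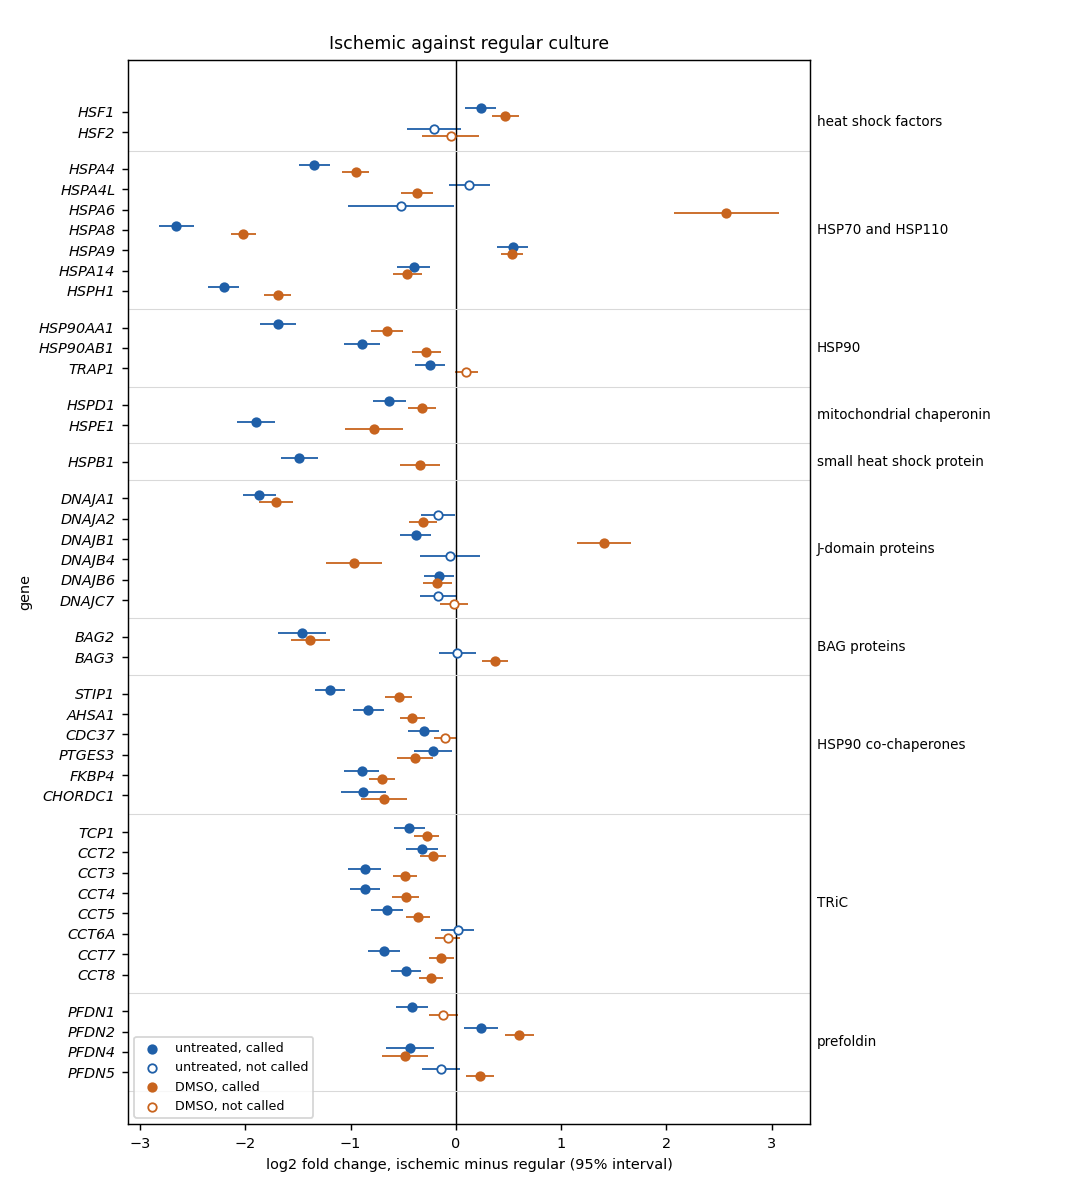
Log2 fold change of each of the 41 genes in ischemic against regular culture, untreated (blue) or with DMSO (orange), with 95% intervals from limma; filled points are called at an adjusted p under 0.05. Most genes lie left of 0 in both, and HSPA6 and DNAJB1 lie right of 0 with DMSO only.

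Among the HSP70 genes, *HSPA8* (gene ID 3312, chromosome 11, 123057489 to 123062462 in GRCh38) had the largest fall. It measured 11.40 and 11.29 log2 CPM in regular and 8.63 and 8.74 in ischemic untreated libraries, a fall by 2.65 (SE 0.0754, adjusted p = 3.02e-11), or 6.29-fold. In DMSO its level was 11.50 and 11.44 in regular and 9.43 and 9.47 in ischemic libraries, a fall by 2.02 (SE 0.0577, adjusted p = 4.77e-15). The groups lay far apart in both experiments and the libraries of a group close together.

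*HSPH1*, the cytosolic HSP110 that exchanges the nucleotide of HSP70, moved alike. Its level was 7.85 and 7.83 in regular and 5.63 and 5.64 log2 CPM in ischemic untreated libraries, a fall by 2.20 (SE 0.0663, adjusted p = 4.84e-11). With DMSO the values were 8.24 and 8.18 against 6.54 and 6.49, a fall by 1.69 (SE 0.059, adjusted p = 7.15e-14). Every ischemic library lay below every regular one. *HSPA4*, another HSP110, fell by 1.34 untreated and by 0.95 with DMSO, and *HSPA14*, a ribosome-associated HSP70, by 0.40 and 0.46. *HSPA4L*, a close relative of *HSPA4*, measured 5.14 and 5.00 in regular and 5.13 and 5.26 in ischemic untreated libraries, which overlap. The values with DMSO were 5.38 and 5.37 against 5.05 and 4.95, and it fell by 0.37 (SE 0.0718, adjusted p = 0.000179).

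The mitochondrial HSP70, *HSPA9*, which pulls imported proteins through the inner membrane, went the other way. It measured 9.05 and 8.98 in regular and 9.56 and 9.55 log2 CPM in ischemic untreated libraries, a rise of 0.54 (SE 0.0665, adjusted p = 1.35e-05). Under DMSO it stood at 9.15 and 9.12 against 9.63 and 9.70, a rise of 0.53 (SE 0.0509, adjusted p = 5.57e-08). The ischemic libraries were the higher ones in both experiments.

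*HSPA6* (gene ID 3310, chromosome 1, 161524540 to 161526894 in GRCh38) differed between the experiments. Untreated, it measured 1.97 and 2.11 in regular and 1.17 and 1.88 log2 CPM in ischemic libraries, from 95 and 119 reads and from 60 and 76 reads, a difference of -0.52 that missed the threshold (SE 0.23, adjusted p = 0.06). Without ischemic replicate 2 the difference was -0.87 (adjusted p = 0.000187) and without ischemic replicate 1 it was -0.17 (adjusted p = 0.471), the ends of the range over all alternatives. It was called lower with libraries centred on their median, at -0.56 (adjusted p = 0.0431), and scaled to their total reads, at -0.69 (adjusted p = 0.0149), and with voom on the recovered reads, and not under quantile normalization. DMSO libraries measured 2.59 and 2.73 in regular and 5.24 and 5.21 in ischemic libraries, from 187 and 162 reads and from 930 and 1085 reads, a rise of 2.57 (SE 0.237, adjusted p = 3.41e-08), or 5.93-fold. Relative to the regular libraries, the ischemic ones thus lay lower without DMSO and higher with it.

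*DNAJB1*, the J-domain protein that delivers unfolded clients to cytosolic HSP70, also differed. Its levels were 7.67 and 7.61 in regular and 7.22 and 7.30 log2 CPM in ischemic untreated libraries, a fall by 0.38 (SE 0.0672, adjusted p = 0.000266). With DMSO they were 8.15 and 8.13 in regular and 9.54 and 9.56 in ischemic libraries, a rise of 1.41 (SE 0.121, adjusted p = 1.29e-08), or 2.65-fold. Neither pair of groups overlaps. The difference between the experiments was not tested, because the tables were normalized separately, and the presence of DMSO and the experiment itself cannot be told apart.

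*DNAJA1*, the other major cytosolic J-domain protein, fell in both experiments. It measured 8.61 and 8.51 in regular and 6.74 and 6.64 in ischemic untreated libraries, a fall by 1.87 (SE 0.0698, adjusted p = 3.34e-10). With DMSO it measured 8.64 and 8.39 in regular and 6.80 and 6.82 in ischemic libraries, a fall by 1.71 (SE 0.0764, adjusted p = 2.23e-12). The ischemic libraries lay well below the regular ones. The other 4 J-domain genes lay between -0.17 and -0.05 untreated, and only *DNAJB6* among them was called, a call lost when any 1 library was left out. *DNAJA2* and *DNAJC7* were called lower untreated under each of the 3 other scalings. With DMSO, *DNAJB4* fell by 0.97, *DNAJA2* by 0.31 and *DNAJB6* by 0.18, and *DNAJC7* was not called at -0.02, a value that moved to -0.24 (adjusted p = 0.00238) with libraries scaled to their total reads.

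Both cytosolic HSP90 genes fell. *HSP90AA1* fell by 1.69 untreated (SE 0.0777, adjusted p = 2.05e-09) and by 0.65 with DMSO (SE 0.0728, adjusted p = 3.85e-07), and *HSP90AB1* by 0.89 and 0.28. *TRAP1*, the mitochondrial HSP90, fell by 0.25 untreated and was not called with DMSO at 0.10, where the value turned to -0.12 (adjusted p = 0.0407) when libraries were scaled to their total reads.

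All 6 partners of HSP90 fell in untreated cells, with a median of -0.855, and 5 of 6 with DMSO, with a median of -0.48. Of all genes 35.2% fell in each experiment. *STIP1* (HOP), which bridges HSP70 and HSP90, fell by 1.19 and 0.54, *FKBP4*, a partner in steroid receptor complexes, by 0.89 and 0.70, and *CHORDC1* by 0.88 and 0.68. *AHSA1*, which speeds the ATPase of HSP90, fell by 0.83 and 0.41 and *PTGES3* (p23) by 0.22 and 0.39. *CDC37*, which brings kinases to HSP90, fell by 0.30 untreated and stood at -0.10 with DMSO without a call, although it was called lower there under each of the 3 other scalings.

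*HSPE1*, the HSP10 lid of the mitochondrial chaperonin, fell more than its partner in untreated cells. It measured 6.34 and 6.27 in regular and 4.34 and 4.46 log2 CPM in ischemic untreated libraries, a fall by 1.90 (SE 0.082, adjusted p = 1.15e-09). In DMSO its level was 6.26 and 5.62 in regular and 5.24 and 5.09 in ischemic libraries, a fall by 0.78 (SE 0.13, adjusted p = 4.15e-05). The regular DMSO libraries lay far apart, and the difference was -0.46 without replicate 1 and -1.10 without replicate 2.

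*HSPD1* (HSP60), transcribed from the same promoter region as *HSPE1* in the opposite direction, measured 9.67 and 9.53 in regular and 8.98 and 8.96 in ischemic untreated libraries, a fall by 0.63 (SE 0.0717, adjusted p = 6.29e-06). The values with DMSO were 9.65 and 9.45 against 9.24 and 9.22, a fall by 0.32 (SE 0.0609, adjusted p = 0.000152). The ischemic libraries were the lower ones in both experiments.

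*HSPB1* (HSP27), the small heat shock protein that MK2 phosphorylates, measured 8.39 and 8.35 in regular and 6.76 and 7.001 log2 CPM in ischemic untreated libraries, a fall by 1.49 (SE 0.0809, adjusted p = 9.24e-09). Under DMSO it stood at 8.38 and 8.35 against 7.95 and 8.09, a fall by 0.34 (SE 0.0907, adjusted p = 0.00274). Its groups did not overlap in either experiment.

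The BAG genes parted. *BAG2*, which inhibits the HSP70-bound ubiquitin ligase CHIP, measured 4.99 and 4.82 in regular and 3.49 and 3.40 in ischemic untreated libraries, a fall by 1.46 (SE 0.104, adjusted p = 1.07e-07). DMSO libraries measured 5.24 and 5.09 in regular and 3.84 and 3.72 in ischemic libraries, a fall by 1.38 (SE 0.0888, adjusted p = 2.91e-10). Both pairs of groups were well apart. *BAG3*, a heat shock target that links HSP70 to small heat shock proteins and autophagy, stood at 0.01 untreated without a call and rose by 0.37 with DMSO.

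Of the 8 TRiC genes, 7 fell in each experiment, against 35.2% of all genes. The falls lay between 0.32 and 0.87 untreated and between 0.14 and 0.48 with DMSO. *CCT4* measured 8.76 and 8.64 in regular and 7.83 and 7.84 in ischemic untreated libraries, a fall by 0.86 (SE 0.0675, adjusted p = 2.35e-07). With DMSO it measured 8.68 and 8.69 against 8.17 and 8.25, a fall by 0.48 (SE 0.0604, adjusted p = 1.88e-06). The exception was *CCT6A*, at 0.02 and -0.08 without a call and with overlapping groups in both experiments. Under quantile normalization its untreated value turned to -0.26 (adjusted p = 0.00471). With DMSO it was called lower under quantile normalization, at -0.46 (adjusted p = 8.56e-07), and with libraries scaled to their total reads, at -0.30 (adjusted p = 8.76e-05).

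Prefoldin, the hexamer that hands actin and tubulin to TRiC, was divided. *PFDN2* measured 6.95 and 6.82 in regular and 7.06 and 7.19 log2 CPM in ischemic untreated libraries, a rise of 0.24 (SE 0.0743, adjusted p = 0.0113). In DMSO its level was 7.02 and 7.002 against 7.61 and 7.62, a rise of 0.60 (SE 0.0652, adjusted p = 2.62e-07). Its ischemic libraries were the higher ones, by little in the first experiment. *PFDN5* measured 6.99 and 6.85 in regular and 6.67 and 6.88 in ischemic untreated libraries, which overlap, although it was called lower there under quantile normalization and under scaling to total reads. The values with DMSO were 7.13 and 7.10 against 7.36 and 7.33, and it rose by 0.23 (SE 0.0641, adjusted p = 0.00428), a call lost under quantile normalization and under scaling to total reads. *PFDN4* fell by 0.44 and 0.48, and *PFDN1* fell by 0.42 untreated and stood at -0.12 with DMSO without a call. With DMSO *PFDN1* was called lower under quantile normalization, at -0.17 (adjusted p = 0.0288), and under scaling to total reads, at -0.34 (adjusted p = 0.00015).

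*HSF1*, the factor that drives the heat shock response, rose by a small amount. It measured 6.22 and 6.25 in regular and 6.47 and 6.47 in ischemic untreated libraries, a rise of 0.24 (SE 0.0685, adjusted p = 0.00818). Under DMSO it stood at 6.17 and 6.16 against 6.61 and 6.67, a rise of 0.47 (SE 0.0613, adjusted p = 2.62e-06). The ischemic libraries were the higher ones in both. *HSF2* was not called in either experiment, at -0.21 and -0.05, but its untreated value was -0.38 (adjusted p = 0.0115) under scaling to total reads. The untreated call of *HSF1* was lost without regular replicate 1 (0.22, adjusted p = 0.0534). That of *PFDN2* was lost without ischemic replicate 2 (0.18, adjusted p = 0.0685) or regular replicate 2 (0.18, adjusted p = 0.115).

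Scaling libraries to their total reads, in place of the deposited scaling, moved the median of all genes to -0.18 untreated and -0.23 with DMSO, and all genes then split into 26.7% higher and 44.8% lower untreated, and 23.2% and 49.1% with DMSO. The members then counted 1 higher and 34 lower untreated, where the calls of *HSF1* and *PFDN2* were lost (that of *PFDN2* also under quantile normalization) and *HSPA9* stayed higher, and 6 higher and 33 lower with DMSO.

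The same contrast was taken within each inhibitor. With VX745 present, 33 of the 41 genes were lower and 4 higher in ischemic culture, against 32.6% and 34% of all genes, with a member median of -0.54. With MK25 present the counts were 33 and 5, against 33.7% and 33.5%, with a median of -0.61. *HSPA8* fell by 2.65 with VX745 and 2.40 with MK25, while *HSPA6* rose by 0.80 and 1.76 and *DNAJB1* by 0.49 and 0.44. The VX745 rises of *HSPA6* and *DNAJB1* rested largely on ischemic replicate 1. *HSPA6* measured 4.27 and 3.11 in ischemic against 2.86 and 2.93 in regular VX745 libraries. For *DNAJB1* these values were 8.94 and 8.30 against 8.14 and 8.12. All 8 TRiC genes fell with each inhibitor present, *CCT6A* by 0.47 and 0.49. *HSPA9* rose by 0.19 and 0.14, calls lost under quantile normalization and under scaling to total reads.

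Each inhibitor was then compared with DMSO in ischemic culture, to ask what blocking p38 or MK2 does to these genes under stress. With VX745 30 of the 41 genes fell and 0 rose, against 14.9% of all genes that fell and 14% that rose, with a member median of -0.29. With MK25 34 fell and 0 rose, against 22% and 19.8%, with a member median of -0.37, and over all genes both medians were 0.00. Both comparisons rest on the same 2 DMSO libraries. Falls of at least 1.5-fold were seen for 3 members with VX745 and 5 with MK25, against 0.906% and 2.65% of all genes, and rises of that size for 0 with each, against 4.35% and 7.02%.

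**Figure D3:**
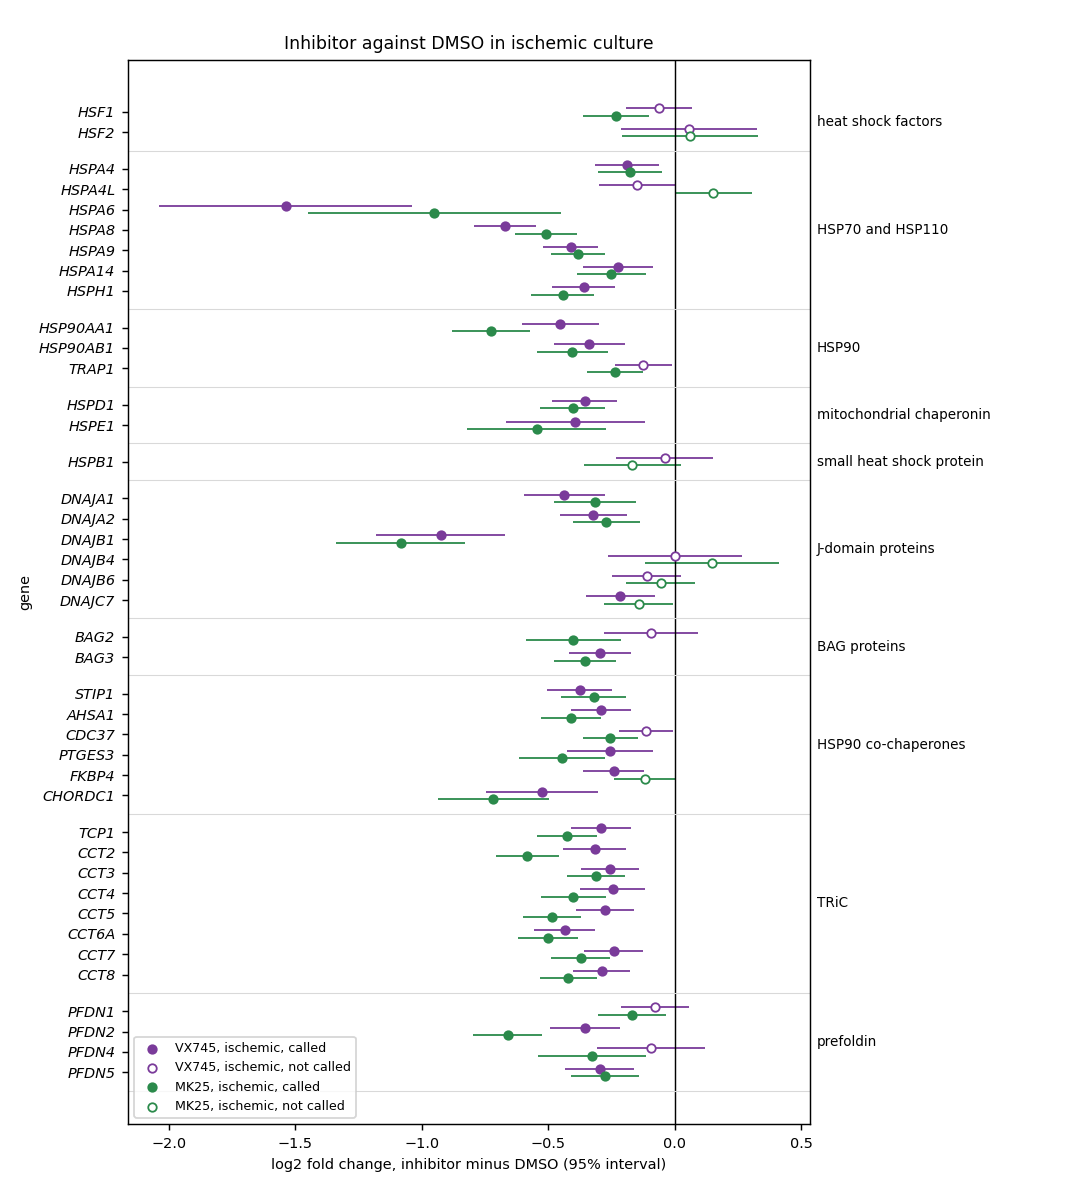
Log2 fold change of each of the 41 genes in ischemic culture with VX745 (purple) or MK25 (green) against DMSO, with 95% intervals from limma; filled points are called at an adjusted p under 0.05. No gene is called higher, and HSPA6 and DNAJB1 lie farthest from 0.

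*HSPA6* and *DNAJB1* had the largest falls with each inhibitor. Their rises with DMSO and these falls share the same 2 ischemic DMSO libraries, so the falls are no independent measure of the rises. *HSPA6*, at 5.24 and 5.21 log2 CPM with DMSO, measured 4.27 and 3.11 with VX745, a fall by 1.54 (SE 0.237, adjusted p = 0.000178). With MK25 it measured 4.54 and 4.01, a fall by 0.95 (SE 0.237, adjusted p = 0.00402). All 4 inhibitor libraries lay below the DMSO libraries and above the regular DMSO libraries at 2.59 and 2.73. The VX745 difference was -2.12 without VX745 replicate 1 and -0.96 without replicate 2, and the MK25 call was lost without MK25 replicate 2 (-0.69, adjusted p = 0.0725).

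*DNAJB1*, at 9.54 and 9.56 with DMSO, measured 8.94 and 8.30 with VX745, a fall by 0.92 (SE 0.121, adjusted p = 3.61e-05). With MK25 it measured 8.45 and 8.47, a fall by 1.08 (SE 0.121, adjusted p = 2.75e-06). As for *HSPA6*, VX745 replicate 1 was the nearer to DMSO, and the difference was -1.25 without it and -0.60 without replicate 2.

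Genes that were lower in ischemic than in regular culture with DMSO fell as well, measured against the same ischemic DMSO libraries. *HSPA8*, at 9.43 and 9.47 with DMSO, measured 8.83 and 8.73 with VX745, a fall by 0.67 (SE 0.0577, adjusted p = 6.62e-07). With MK25 it measured 8.97 and 8.92, a fall by 0.51 (SE 0.0577, adjusted p = 3.46e-06). The inhibitor libraries lay below both DMSO libraries, farther from the level of regular culture. *HSP90AA1* fell by 0.45 with VX745 and 0.73 with MK25, *CHORDC1* by 0.53 and 0.72, *DNAJA1* by 0.44 and 0.32 (the MK25 call was lost under scaling to total reads) and *HSPH1* by 0.36 and 0.44.

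*HSPA9* and *PFDN2*, which ischemic culture had raised, also fell. *HSPA9*, at 9.63 and 9.70 with DMSO, measured 9.26 and 9.25 with VX745 and 9.30 and 9.27 with MK25, falls by 0.41 and 0.38 (SE 0.0509 for each). *PFDN2*, at 7.61 and 7.62, measured 7.24 and 7.28 with VX745 and 6.98 and 6.93 with MK25, falls by 0.36 and 0.66 (SE 0.0652 for each). With MK25 the *PFDN2* libraries lay just below the regular DMSO libraries, at 7.02 and 7.002.

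All 8 TRiC genes fell with each inhibitor, by between 0.24 and 0.44 with VX745 and between 0.31 and 0.58 with MK25. Of all genes 14.9% fell with VX745 and 22% with MK25. The shares were 55.4% and 65.3% at 8 log2 CPM or above, where all TRiC genes but *TCP1* lay. The MK25 call of *CCT3* was lost under quantile normalization. The largest were *CCT6A* with VX745 (SE 0.0566) and *CCT2* with MK25 (SE 0.059). In prefoldin 2 of 4 genes fell with VX745 and 4 of 4 with MK25, but under quantile normalization 1 and 2 did, and with libraries scaled to their total reads 2 and 1, where *PFDN2* was called under every scaling tried. Of the HSP90 partners 5 of 6 fell with each inhibitor. Under both of those scalings 3 were called with VX745, where *PTGES3* and *FKBP4* were lost, and 4 with MK25, where *CDC37* was lost. *HSPD1*, at 9.24 and 9.22 with DMSO, measured 8.87 and 8.88 with VX745 and 8.79 and 8.86 with MK25, falls by 0.36 and 0.40. *HSPE1*, at 5.24 and 5.09, measured 4.79 and 4.75 with VX745 and 4.55 and 4.69 with MK25, falls by 0.39 (adjusted p = 0.0312) and 0.55 (adjusted p = 0.00292). For both mitochondrial chaperonin genes the inhibitor libraries lay below the DMSO ones, and the VX745 call of *HSPE1* was lost under 6 of 12 alternatives.

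With neither inhibitor were *HSPB1*, *HSF2*, *HSPA4L*, *DNAJB4* and *DNAJB6* called. *HSPB1*, at 7.95 and 8.09 with DMSO, measured 8.14 and 7.82 with VX745 and 7.97 and 7.74 with MK25, and the groups overlap. Its differences were -0.04 (95% interval -0.23 to 0.15) and -0.17 (-0.36 to 0.02). *HSF1*, at 6.61 and 6.67 with DMSO, measured 6.62 and 6.53 with VX745, a difference of -0.06 without a call and with overlapping libraries. With MK25 it measured 6.43 and 6.38, a fall by 0.23 (SE 0.0613, adjusted p = 0.00605) that was lost under quantile normalization and under scaling to total reads. *BAG2*, at 3.84 and 3.72 with DMSO, measured 3.72 and 3.65 with VX745, which was not called, and 3.31 and 3.45 with MK25, a fall by 0.40.

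Among all genes the calls varied with the level of expression. With VX745, 8.09% of genes with a mean under 6 log2 CPM fell, 29.3% of those from 6 to under 8 and 55.4% of those at 8 or above, where the members counted 4 of 9, 11 of 15 and 15 of 17. With MK25 the shares of all genes were 13.8%, 40.1% and 65.3%, and the members counted 6 of 9, 12 of 15 and 16 of 17. In the highest band the median difference with VX745 was -0.19 over all genes and -0.32 over the members, and with MK25 it was -0.24 and -0.41. The part of expression level in the members' falls was not tested.

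**Figure D4:**
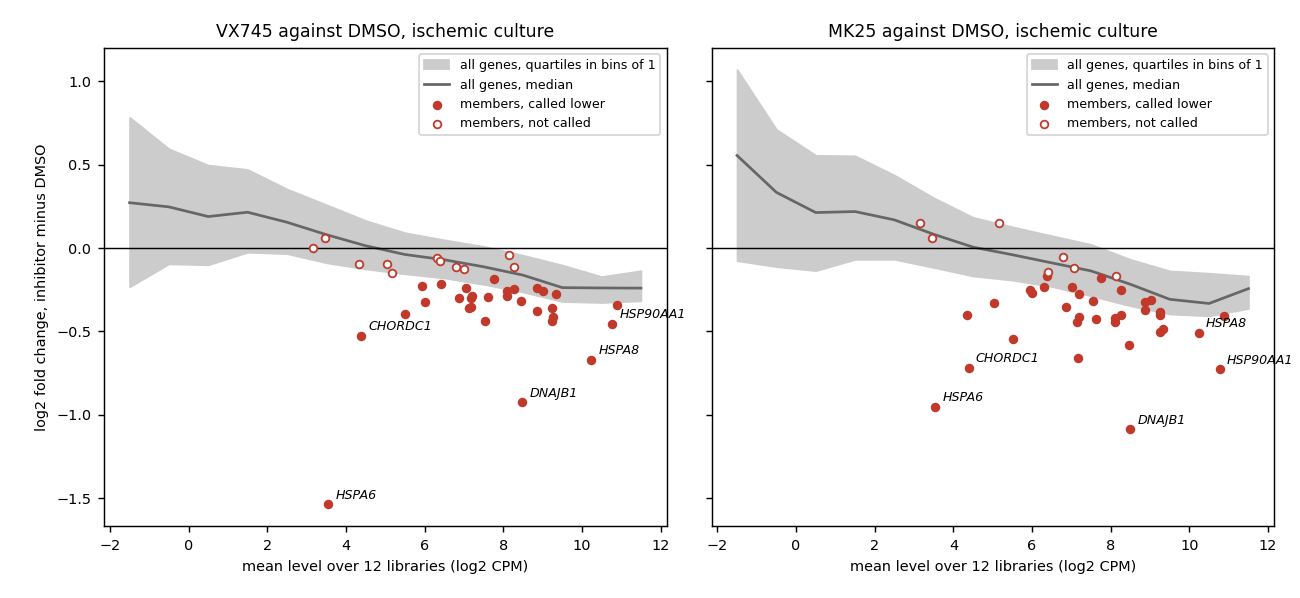
Log2 fold change in ischemic culture with VX745 (left) or MK25 (right) against DMSO, by mean level over 12 libraries in log2 CPM, with members in red (filled when called) and the median and quartiles of all genes in bins of 1 in grey. The grey median declines with level, and most members lie below it.

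Scaled to total reads, all genes had medians of 0.12 with VX745 and 0.13 with MK25, and split into 25.8% higher and 5.15% lower with VX745 and 32.5% and 10.8% with MK25. The members then counted 21 lower and 0 higher with VX745, and 24 lower and 1 higher with MK25, the last being *HSPA4L* (0.28, adjusted p = 0.00565). *CCT3*, *CCT4* and *CCT7* lost their VX745 calls there, and also under quantile normalization, where *CCT5* lost its own as well. Among the members called lower with both inhibitors under each of the 3 other scalings were *HSPA8*, *HSPH1*, *HSP90AA1*, *DNAJB1*, *HSPA6*, *HSPA9*, *PFDN2* and *CHORDC1*. So were *STIP1*, *AHSA1*, *HSPD1* and the TRiC genes *TCP1*, *CCT2*, *CCT6A* and *CCT8*.

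Fewer calls were made in regular culture. With VX745 limma called 0 of the 41 genes, against 0.157% of all genes lower and 0.178% higher, 2 members had an unadjusted p under 0.05, and voom on recovered reads also called 0. Without regular DMSO replicate 1, 1 member was called higher. With MK25, 2 fell and 1 rose, against 5.21% and 7% of all genes. The falls were thus near the share of all genes and the rise below it, so these calls do not set the members apart. *HSPH1* measured 8.24 and 8.18 with DMSO and 7.83 and 7.85 with MK25, a fall by 0.37 (SE 0.059, adjusted p = 0.000538). *CCT4* measured 8.68 and 8.69 against 8.46 and 8.30, a fall by 0.31 (SE 0.0604, adjusted p = 0.00279). *PFDN5* measured 7.13 and 7.10 against 7.39 and 7.24, a rise of 0.20 (SE 0.0641, adjusted p = 0.0482). The groups did not overlap for these 3 genes, and the call of *PFDN5* was lost under 8 alternatives.

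Whether the inhibitors acted differently in the 2 cultures was tested as an interaction, the difference with an inhibitor in ischemic culture minus that in regular culture. It was negative and called for 20 members with VX745 and 21 with MK25, and positive and called for 0, against 6% and 13.9% of all genes negative and 5.78% and 10.5% positive. *DNAJB1* had -0.92 with VX745 (SE 0.171, adjusted p = 0.00336) and -0.97 with MK25 (SE 0.171, adjusted p = 0.000655). In regular culture it measured 8.14 and 8.12 with VX745 and 8.06 and 7.99 with MK25, against 8.15 and 8.13 with DMSO. *HSPA6* had -1.77 with VX745 (SE 0.335, adjusted p = 0.00366) and -0.81 with MK25, which was not called. In regular culture *HSPA6* stayed between 2 and 3 log2 CPM in all 6 libraries, at 2.86 and 2.93 with VX745 and 2.52 and 2.51 with MK25.

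*HSPE1* had -0.65 with VX745 (SE 0.184, adjusted p = 0.029) and -0.92 with MK25 (SE 0.184, adjusted p = 0.00169). The VX745 value missed the threshold under scaling to total reads (adjusted p = 0.0567). In regular culture it measured 6.25 and 6.16 with VX745 and 6.35 and 6.28 with MK25. Regular DMSO replicate 2 was the lowest of the regular libraries, and without it the interactions were -0.34 (adjusted p = 0.082) and -0.60 (adjusted p = 0.00202).

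For VX745 the count of 20 became 11 without regular DMSO replicate 2 or regular VX745 replicate 1, 10 without ischemic VX745 replicate 1 and 11 without its replicate 2, 11 without ischemic DMSO replicate 1 and 13 without its replicate 2. It was 5 without the variance trend, 10 under quantile normalization and 11 with libraries scaled to their total reads, where all genes split into 12.1% positive and 2.47% negative. Negative calls over all genes fell as well, from 6% to 1.5% without the trend and to 3.11% under quantile normalization. For MK25 the count ran from 17 to 24 as each library was left out. It was 10 under quantile normalization and 14, with 1 positive, under total reads, where all genes split into 19.7% positive and 7.49% negative. Under quantile normalization 10.5% of all genes were negative, against 13.9% in the main fit. By level, 3 of 9, 6 of 15 and 11 of 17 members were negative with VX745, from the lowest band to the highest, against 2.78%, 11.5% and 31.1% of all genes. With MK25 the members counted 3 of 9, 5 of 15 and 13 of 17, against 8.27%, 25.3% and 50.1% of all genes.

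MK25 and VX745 were also set directly against each other in ischemic culture. Of the 41 genes 5 were lower with MK25 and 1 was higher, against 10.2% and 8.22% of all genes. The lower count was thus near the share of all genes and the higher count below it. The lower genes were *BAG2* (-0.31, SE 0.0888), *PFDN2* (-0.31, SE 0.0652), *HSP90AA1* (-0.27, SE 0.0728), *CCT2* (-0.27, SE 0.059) and *CCT5* (-0.21, SE 0.0542). *HSPA4L*, at 4.88 and 4.83 with VX745 and 5.12 and 5.19 with MK25, was higher by 0.30 (SE 0.0718, adjusted p = 0.00652). *HSPA8* was not called at 0.16 (adjusted p = 0.0611), but was called higher with MK25 under each of the 3 other scalings. *HSPA6* differed by 0.59 with overlapping libraries and no call, with a 95% interval of 0.09 to 1.09. The count of 5 became 2 without MK25 replicate 1 or VX745 replicate 1 and 3 without VX745 replicate 2, and the higher call was lost without replicate 2 of either inhibitor. With only these groups in the fit, 12 were lower and 2 higher, against 13.6% and 11.5% of all genes.

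Beside the 41 genes, 59 other chaperone genes were counted, of which 49 were listed in the table of untreated cells and 51 in the other. In ischemic culture 26 of 49 fell and 10 rose untreated, against 35.2% and 35.2% of all genes, with a median of -0.20. With DMSO 25 of 51 fell and 11 rose, against 35.2% and 34.4%, with a median of -0.23. Those that fell at least 2-fold untreated were the small heat shock genes *CRYAB* (-1.89) and *HSPB8* (-1.63), the HSP70 relative *HSPA12A* (-1.34), the J-domain gene *DNAJA4* (-1.02) and the HSP90 partner *NUDC* (-1.01). Those that rose as much were *LONP1*, a protease of the mitochondrial matrix (1.91), the J-domain gene *DNAJB2* (1.89), the factor *HSF4* (1.71) and the HSP70 relative *HSPA13* (1.48). In ischemic culture 12 of 51 fell and 1 rose with VX745, against 14.9% and 14% of all genes, with a median of -0.12. With MK25 16 fell and 3 rose, against 22% and 19.8%, with a median of -0.11. Among these other chaperone genes, the sole called change of at least 1.5-fold with an inhibitor there was *DNLZ*. This partner of mitochondrial HSP70 had -0.68 with MK25.

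Chaperones of the endoplasmic reticulum (ER) and proteasome subunits were counted for comparison. In untreated ischemic culture 10 of 18 ER chaperone genes rose and 7 fell, with a median of 0.21, and 25 of 30 proteasome genes fell and 0 rose, with a median of -0.59. Of all genes 35.2% rose and 35.2% fell there, so the falls of ER chaperones were near that share. *HSPA5* (BiP), the HSP70 of the ER, rose by 0.89 untreated and 0.76 with DMSO, while *HSPA8* fell. In ischemic culture 12 of 18 ER chaperone and 23 of 30 proteasome genes fell with VX745, against 14.9% of all genes. With MK25 13 of 18 and 27 of 30 fell, against 22%. *HSPA5* had -0.51 with VX745 and -0.63 with MK25, both called. The differences between these lists and the 41 genes were not tested.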

How the data were processed

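RNA was sequenced from 16 LN229 libraries, 2 per group. Per the study's methods the authors aligned reads to GRCh38 with HISAT2 in Galaxy and used edgeR to detect differences in expression. The counter, the scaling behind the log2 values and the versions are not given in the sources used here. The deposited values are log2 CPM (read counts scaled to library size) per Entrez gene, in 1 table of 4 libraries and 13559 genes and 1 of 12 libraries and 14024 genes, each normalized separately, so tests stay within a table. Gene symbols were matched by Entrez number for 13477 and 13927 of these. Whole reads were recovered from all values within 0.1 read, and library totals had medians of 24382774 and 28734192.

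Groups were compared with limma 3.58.1 in R 4.3.3 on the log2 values, with a variance trend and Benjamini-Hochberg adjustment over all genes of a table. The second table was fitted whole, so its 12 libraries share 1 estimate of spread. The scripts were tested on simulated data. Figures and tables used Python 3.11.15, numpy 2.4.6, pandas 2.3.3 and matplotlib 3.10.9. Alternatives were other scalings, a filter at 1 CPM, voom, no trend, a replicate block, only the groups compared and each library left out.

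The 41 genes and the other lists were chosen with earlier results of these data known. Values in every library are given for the 3 largest called rises and falls in ischemic culture, untreated or with DMSO, the 2 largest in each other comparison, and *HSF1*, *HSPB1*, *HSPA6*, *HSPD1* and *HSPE1*. Other chaperone genes are named when called at 2-fold in untreated ischemic culture or 1.5-fold with an inhibitor. Promoters are from RefSeq (GRCh38.p14) and transcript lengths from GENCODE. Protein sequences were not used here.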

Additional observations from a re-analysis of the deposited data

Results flagged for a closer look

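For 20 of the 41 genes the VX745 interaction was called, with limma's interaction term and adjustment over all genes. It is the log2 difference in ischemic culture minus that in regular culture. Of all genes 6% were called negative and 5.78% positive, with 31.1% negative at 8 log2 CPM or above. The count was 5 without the variance trend and 10 under quantile normalization, against 1.5% and 3.11% of all genes. Values of -0.40 or beyond were found for *HSPA6* (-1.77), *DNAJB1* (-0.92), *HSPE1* (-0.65), *HSPA8* (-0.62), *CHORDC1* (-0.50), *PFDN2* (-0.48), *DNAJA1* (-0.48), *HSP90AA1* (-0.46), *STIP1* (-0.45) and *PFDN5* (-0.40). The other 10 were *CCT6A* (-0.39), *HSP90AB1* (-0.37), *AHSA1* (-0.36), *HSPA9* (-0.34), *CCT2* (-0.32), *HSPD1* (-0.31), *CCT7* (-0.29), *CCT5* (-0.29), *FKBP4* (-0.27) and *TCP1* (-0.26).

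For 21 genes the MK25 interaction was called, against 13.9% of all genes negative and 10.5% positive. At 8 log2 CPM or above 50.1% of all genes were negative. Under quantile normalization the count was 10, against 10.5% of all genes negative. Values of -0.40 or beyond were found for *DNAJB1* (-0.97), *HSPE1* (-0.92), *PFDN2* (-0.70), *HSP90AA1* (-0.63), *CCT2* (-0.57), *CHORDC1* (-0.50), *PFDN5* (-0.48), *AHSA1* (-0.44), *PFDN4* (-0.44), *CCT5* (-0.42), *CCT6A* (-0.41) and *CCT7* (-0.40). The other 9 were *HSPA9* (-0.39), *HSP90AB1* (-0.38), *HSPA8* (-0.38), *CCT8* (-0.36), *HSPD1* (-0.35), *TCP1* (-0.34), *STIP1* (-0.31), *PFDN1* (-0.28) and *CDC37* (-0.22). Both interactions use the same 4 DMSO libraries, and every value was negative.

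For 3 genes the ischemic libraries moved one way in the first experiment and the other way in the second, each group clear of the other. *HSPA6* had -0.52 untreated and 2.57 with DMSO, *DNAJB1* had -0.38 and 1.41, and *TRAP1* had -0.25 and 0.10. The untreated value of *HSPA6* and the DMSO value of *TRAP1* were not called, and the difference between the experiments was not tested. With libraries scaled to their total reads, the DMSO value of *TRAP1* turned to -0.12. The share of all genes that moved in opposite ways like this was not counted.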

How the results depend on the processing

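The 22 counts of members in 11 comparisons were recomputed under each alternative, and 250 of these values stayed within 1.5 times the reported count while 72 did not. Requiring a fold change of at least 1.5, then of at least 2, left 18 and 9 lower and 0 and 0 higher in ischemic culture untreated, 10 and 4 lower and 3 and 2 higher with DMSO, and 18 and 8 lower and 1 and 0 higher with VX745. With MK25 it left 8 lower at 2-fold and 1 and 1 higher. In ischemic culture it left 3 and 1 lower with VX745 and 5 and 1 with MK25, and for the interactions 4 and 1 with VX745 and 4 and 0 with MK25. No member passed 1.5 or 2-fold with MK25 in regular culture or for MK25 against VX745, with 0 in both directions.

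Scaling to total reads was chosen after seeing the data. It left 1 higher untreated, gave 1 higher with MK25 in ischemic culture and 1 positive MK25 interaction, turned *TRAP1* with DMSO to -0.12 and lowered the VX745 interactions to 11. Quantile normalization left 10 interactions with each inhibitor and turned *CCT6A* untreated to -0.26, and without the variance trend 5 VX745 interactions were left. In ischemic against regular culture with MK25, 3 were higher under quantile normalization, total reads or a fit of only the groups compared. With MK25 in regular culture 0 were higher under median centring, total reads, no trend, voom or only the groups compared. For MK25 against VX745, 2 were higher under all 3 scalings, voom and only the groups compared. The last gave 12 lower, against 13.6% of all genes. The cause was not tested. A filter at a mean of 1 CPM moved no count by over 1.5 times.

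Leaving out each library in turn gave 3 to 4 higher members in ischemic culture with MK25, 0 to 1 with VX745 and 0 to 1 with MK25 in regular culture, and 0 to 2 higher and 2 to 6 lower for MK25 against VX745. VX745 interactions ran from 10 to 24. With 1 library left in a group, it is assumed to vary like the others.

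With the replicate block, 2 members were higher with MK25 in regular culture and 2 for MK25 against VX745, while the other counts stayed within 1.5 times. The labels do not say whether the replicate numbers pair the samples. Deviations of same-numbered libraries correlated at 0.185 for the 1 pair of the first experiment. Over 15 pairs of the second they ran between -0.104 and 0.178, 2 of them over 0.1. These values cannot decide on pairing, because the library numbers of the second experiment were only assumed to be the replicate numbers.

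Depth limits little here, since no member had fewer than 60 reads.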
